A study of Homo sapiens with 4 samples.

Results

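The inflammatory chemokine genes CXCL1, CXCL2, CXCL8 and CCL2, the interleukin-1 genes IL1A and IL1B, and the NF-kB feedback genes NFKBIA, TNFAIP3, BIRC3 and RELB were examined after knockdown of PRR11. These 10 genes were chosen by symbol for their roles, with earlier results of these data known, and each had its own entry among the 36359 genes counted. PRR11, a proline-rich protein, was silenced in the ACHN line, established from a human renal cell carcinoma, to search for the signals that act downstream of it in this cancer. Cells received either siNC, the control siRNA, or siPRR11, and 2 stranded mRNA libraries were sequenced from each group. The study names a pair of siRNA sequences against PRR11, and which of them the sequenced cells received, and at what time after transfection they were collected, is not given in the sources used here. The labels do not say whether the libraries of a group came from separate cultures, so p-values measure the spread between these libraries, which may be technical. In the edgeR test used, the spread set for a gene came mainly from the trend over all genes.

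NF-kB transcription factors are held in the cytoplasm by inhibitor proteins until a receptor such as that for interleukin-1 or TNF activates the IKK kinase, which marks the inhibitor for degradation. The freed factors switch on genes of secreted attractants for leukocytes (the chemokines), and at the same time genes that shut the pathway down or redirect it. Renal carcinoma cells are known to secrete several of these chemokines, and the mRNA level of such genes is widely used as a readout of NF-kB activity, although other factors also drive them.

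Depth was high, with 59003839 to 92612749 counted reads per library, and levels are given as CPM (library-scaled counts) after TMM scaling, which corrects the library size for differences in RNA composition. The targeted gene, PRR11, stood at 41.3 and 40.4 CPM in the siNC libraries and at 15.3 and 14.02 CPM in the siPRR11 libraries, a log2 fold change of -1.48 ± 0.0909 (SE; adjusted p = 3.35e-06, edgeR quasi-likelihood test). Of 12 renal epithelial marker genes 11 were above 1 CPM in every library, the exception being CDH6 at under 0.1 CPM. Of 11 renal epithelial markers tested, 1 rose and 4 fell at an adjusted p of 0.05 (edgeR), beside 16.7% of all genes tested that passed in either direction. Leukocytes, a common source of chemokines in tissue, were checked by 11 marker genes, of which PTPRC, CD3E, MS4A1 and TYROBP stood under 0.1 CPM in every library, and the sum of the list was 50.7 to 62.3 CPM in siNC and 61.5 to 67.1 CPM in siPRR11. Most of that sum was CD68, at 45.2 to 60.1 CPM. Of the 5 leukocyte markers tested, 1 passed: ITGAM, named after its value was seen, rose from 4.22 and 4.19 CPM to 5.64 and 5.68 CPM (log2 fold change 0.43, adjusted p = 0.0446, edgeR), a call lost in DESeq2, in limma and with any library left out. The part of these markers in the results was not tested. The endothelial markers summed to 0.345 to 0.416 CPM in siNC and 0.678 to 0.70 CPM in siPRR11, and PECAM1, CDH5 and KDR were under 0.1 CPM throughout. Of the 6 fibroblast markers DCN and LUM were under 0.1 CPM throughout and 2 were above 1 CPM in every library. The list summed to 503 to 541 CPM in siNC and 556 to 567 CPM in siPRR11, and 1 of the 4 tested rose.

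RefSeq promoter windows (GRCh38.p14) were at hand for 8 of the 10 genes, CCL2 and RELB being the others. In 6 of the 8 a sequence of the kind that NF-kB binds was found before the RefSeq start site, and these stretches are shown for it, whereas IL1A and IL1B had no match in this window. Capitals mark matches to the NF-kB consensus or, for CXCL8, to the shorter motif GGAATTTCC, and each sequence is written 5′ to 3′ on the strand of its gene.
CXCL1: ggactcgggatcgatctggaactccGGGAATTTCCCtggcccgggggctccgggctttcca
CXCL2: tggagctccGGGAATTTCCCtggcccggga
CXCL8: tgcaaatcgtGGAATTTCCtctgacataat
NFKBIA: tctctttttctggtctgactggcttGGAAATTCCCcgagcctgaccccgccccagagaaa
TNFAIP3: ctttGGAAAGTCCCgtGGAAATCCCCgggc
BIRC3: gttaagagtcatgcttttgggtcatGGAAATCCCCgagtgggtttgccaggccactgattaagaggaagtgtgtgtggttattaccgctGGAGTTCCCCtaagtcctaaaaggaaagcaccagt

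These stretches lie at chr4:73869289-73869349 on the plus strand for CXCL1, chr4:74099253-74099282 on the minus strand for CXCL2 and chr4:73740468-73740497 on the plus strand for CXCL8. Those of the feedback genes lie at chr14:35404796-35404855 on the minus strand for NFKBIA, chr6:137867188-137867217 on the plus strand for TNFAIP3 and chr11:102317260-102317383 on the plus strand for BIRC3. Within the 250 bases before the start site, and on either strand, the NF-kB consensus (10 letters) was found for CXCL1, CXCL2, NFKBIA, TNFAIP3 and BIRC3, which is 5 of 8 members, whereas 11.8% of 27305 genes in the same table had a match. The motif GGAATTTCC, searched on both strands and overlapping the consensus, was found for CXCL1, CXCL2, CXCL8 and NFKBIA, 4 of 8 members, against 0.502% of all genes. Members were chosen for their roles in the NF-kB pathway, and the shorter motif was searched besides the consensus, which CXCL8 did not match. The shares beside all genes are therefore a description and not a test. The RefSeq starts of CXCL2, TNFAIP3, CXCL8 and BIRC3 lie inside the gene models used for counting. Of these genes, only CXCL2 and TNFAIP3 have printed stretches within the counted gene spans given further on. BIRC3 and TNFAIP3 each carried 2 separate matches to the consensus, and CXCL1 and CXCL2 carried the same stretch, which matched the consensus on both strands. Over their 250 upstream bases CXCL1 and CXCL2 shared 197 identical positions in 281 aligned columns (70.1%). A match of letters is a description of the sequence and does not show that a factor was bound in these cells.

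After knockdown of PRR11, 1 of the 8 members that could be tested passed the edgeR test: BIRC3 rose, with a fold change of 1.78. This call was lost in DESeq2 and in limma. CXCL1, CXCL2, CXCL8, CCL2, NFKBIA, TNFAIP3 and RELB did not pass the test, and IL1A and IL1B were too low to be tested. Among all 21630 genes tested, 16.7% passed at an adjusted p of 0.05 (1645 higher and 1977 lower), and 7.61% were called higher. The share of the members, 1 of 8, was thus near the background. At an unadjusted p of 0.05, 3 members passed (BIRC3, CXCL1 and CXCL2), beside 30.3% of all genes. The groups did not overlap in 2 members, CXCL8 and BIRC3, beside 58.4% of all genes. Log2 fold changes were positive in 4 members and negative in 4, and their median was -0.03, beside 0.00 over all genes tested. The 3 CXCL chemokines and NFKBIA had the negative values.

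**Figure D1:**
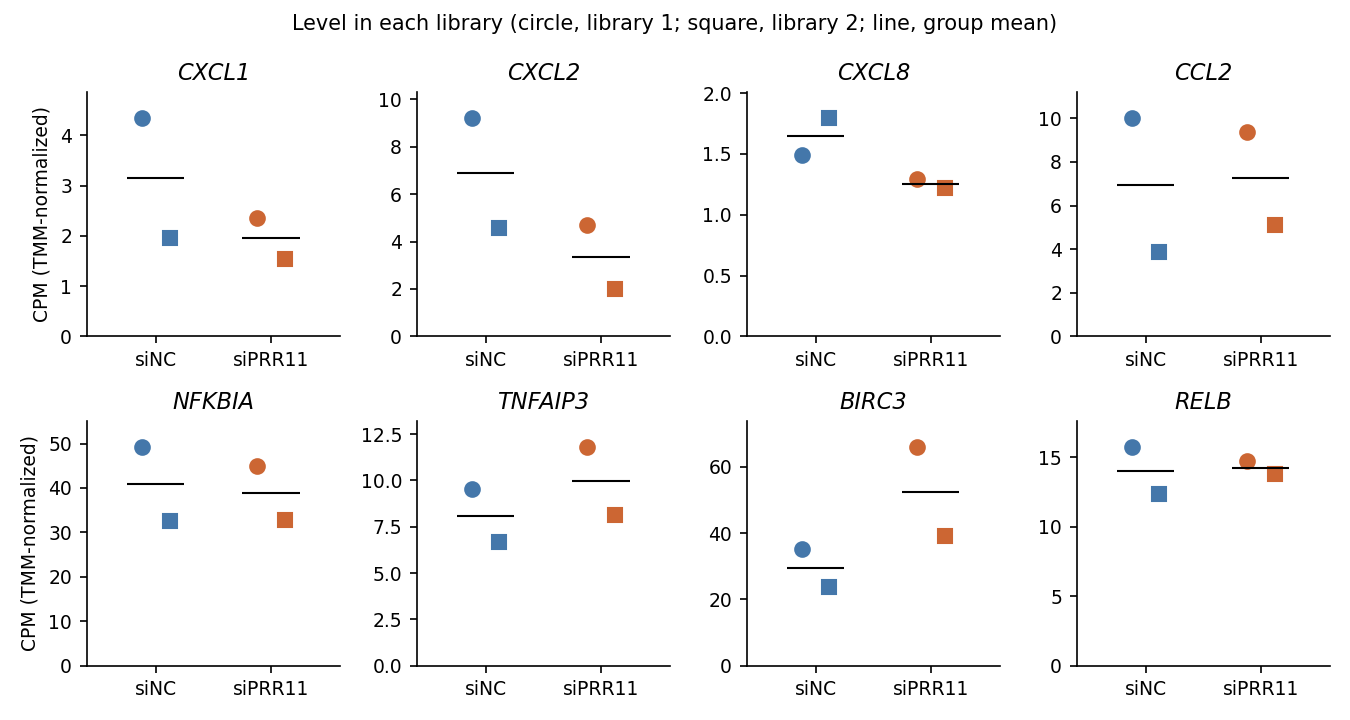
TMM-normalized CPM of the 8 tested members in each library, siNC in blue and siPRR11 in orange, with circles for library 1, squares for library 2 and a line at the group mean. BIRC3 stands above both siNC values in both siPRR11 libraries, and in 7 of the 8 genes library 1 lies above library 2 in both groups.

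CXCL1, CXCL2 and CXCL8 encode ligands of the receptor CXCR2, through which they attract neutrophils, and they lie close together on chromosome 4. CXCL2 (chr4:74097035-74099293) stood at 9.20 and 4.59 CPM in siNC and at 4.71 and 2.01 CPM in siPRR11. The groups overlapped narrowly, since the higher siPRR11 library lay just above the lower siNC library. The log2 fold change was -1.04 ± 0.345 (SE), and its adjusted p of 0.0592 in the edgeR quasi-likelihood test missed the threshold (unadjusted p = 0.0108). The value rested on the choice of libraries: it was -1.79 without siPRR11 library 1, -1.45 without siNC library 2, -0.56 without siPRR11 library 2 and -0.44 without siNC library 1, and the first 3 of these passed the test.

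CXCL1 (chr4:73869393-73871242) gave 4.34 and 1.97 CPM in siNC and 2.37 and 1.54 CPM in siPRR11. Only siNC library 1 stood clear of the others, and the groups overlapped. The log2 fold change was -0.71 ± 0.311 (SE; adjusted p = 0.148, edgeR). Without siNC library 1 the value was -0.01, whereas it was -1.15 without siNC library 2 and -1.05 without siPRR11 library 1, and it passed in the latter 2 fits. The value without siPRR11 library 2 was -0.44. Messenger RNAs of this subfamily are much alike, so that reads can be shared between genes: of all 50-base windows in the annotated transcript, 60 of 1125 (5.33%) of CXCL1 occurred in CXCL2 as well, and 108 of 1066 (10.1%) of CXCL2 occurred in CXCL1 or CXCL3. How far such sharing affects the counts of the pair was not tested.

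CXCL8 (chr4:73740506-73743716), interleukin-8, differed from its relatives in that its libraries lay close together. Its level was 1.49 and 1.79 CPM in siNC and 1.29 and 1.22 CPM in siPRR11. Both siPRR11 libraries were below both siNC libraries, yet the difference did not pass the test, with a log2 fold change of -0.38 ± 0.218 (SE, adjusted p = 0.269, edgeR). With each library left out in turn the value lay between -0.52 and -0.25 and passed in none of the 4 fits. None of its 1593 windows of 50 bases occurred in another gene.

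CCL2 (chr17:34255218-34257203), the ligand of CCR2 that attracts monocytes, had the largest spread between the siNC libraries among the tested members. It stood at 10.0 and 3.86 CPM in siNC and at 9.38 and 5.12 CPM in siPRR11. Within a group library 1 exceeded library 2 by 2.58-fold in siNC and 1.83-fold in siPRR11, and the siPRR11 libraries lay inside the siNC range. The log2 fold change was 0.05 ± 0.344 (SE; adjusted p = 0.95, edgeR), and its direction turned with the libraries used. It was 0.91 without siNC library 1, where it passed the test, 0.42 without siPRR11 library 2, -0.47 without siNC library 2 and -0.45 without siPRR11 library 1.

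IL1A and IL1B encode interleukin-1 alpha and beta, which activate NF-kB through the receptor IL1R1 and are themselves NF-kB targets in many cells. IL1A (chr2:112773915-112784590) had 2 and 4 counts in siNC and 4 and 0 counts in siPRR11. IL1B (chr2:112829751-112836903) had 2 and 1 counts in siNC and 7 and 6 counts in siPRR11. A level of 3 counts, the limit that a count of 0 allows, corresponds to 0.0318 to 0.0517 CPM in these libraries, so IL1A was at or near that limit in every library and no fold is given. For IL1B both siPRR11 libraries were above both siNC libraries, with 13 counts against 3 in all and a depth-corrected ratio of 3.37 (95% exact interval 0.925 to 18.4, which covers counting error only). In a fit of all genes without a filter on low counts, IL1B did not pass (log2 fold change 1.69, adjusted p = 0.66, edgeR). No difference was called in either gene, and with so few counts the values do not settle whether there was one.

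The feedback genes act at different steps. NFKBIA encodes the inhibitor protein that returns NF-kB to the cytoplasm, and TNFAIP3 encodes A20, an enzyme that edits ubiquitin chains on the receptor complexes. BIRC3 encodes cIAP2, a ubiquitin ligase of the TNF receptor complex and an inhibitor of cell death, and RELB is an NF-kB subunit of the non-canonical pathway.

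BIRC3 (chr11:102317450-102339403) stood at 35.3 and 23.6 CPM in siNC and at 65.8 and 39.2 CPM in siPRR11. Both siPRR11 libraries were above both siNC libraries, the nearest pair being 39.2 and 35.3 CPM. The log2 fold change was 0.83 ± 0.212 (SE; adjusted p = 0.0196, edgeR quasi-likelihood test). It was 1.15 without siNC library 1, 1.16 without siPRR11 library 2, 0.57 without siNC library 2 and 0.41 without siPRR11 library 1. Such fits, with 1 library in a group, took the spread mainly or wholly from the common trend. A pass in them, for any gene, therefore says little about that gene's own spread. The edgeR fit of all libraries also leaned on the trend, which weighed 9.71 degrees of freedom against 2 from a gene's own libraries. The call was lost in DESeq2 (0.83, adjusted p = 0.211) and in limma on log2(RPKM + 1) (0.72, adjusted p = 0.142) or log2(RPKM + 0.1) (0.84, adjusted p = 0.125), over a range of adjusted p from 1.11e-27 to 0.211 in the 8 alternatives that kept all libraries. Its closest relative BIRC2 shared 11 of its 6828 windows of 50 bases (0.161%).

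TNFAIP3 (chr6:137867188-137883312) gave 9.54 and 6.66 CPM in siNC and 11.8 and 8.11 CPM in siPRR11. The groups overlapped, and the highest value was that of siPRR11 library 1. The log2 fold change was 0.29 ± 0.188 (SE; adjusted p = 0.337, edgeR), with 0.58 without siNC library 1 and 0.53 without siPRR11 library 2, both of which passed, but 0.06 without siNC library 2 and -0.0023 without siPRR11 library 1. Of its exonic bases 1.88% are overlapped by an antisense gene, and whether counting used strand is not given.

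NFKBIA (chr14:35401511-35404749) gave 49.1 and 32.6 CPM in siNC and 44.9 and 32.7 CPM in siPRR11, so that the siPRR11 libraries fell inside the range of the siNC libraries. The log2 fold change was -0.08 ± 0.173 (SE; adjusted p = 0.81, edgeR). It was -0.34 without siNC library 2, where it passed, -0.32 without siPRR11 library 1, 0.25 without siNC library 1 and 0.13 without siPRR11 library 2. RELB (chr19:45001430-45038198) gave 15.7 and 12.4 CPM in siNC and 14.7 and 13.8 CPM in siPRR11. The siPRR11 libraries again lay inside the siNC range, with a log2 fold change of 0.02 ± 0.121 (SE; adjusted p = 0.946, edgeR), the smallest error among the members. Leaving out each library in turn moved it between -0.14 and 0.20 with no call.

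**Figure D2:**
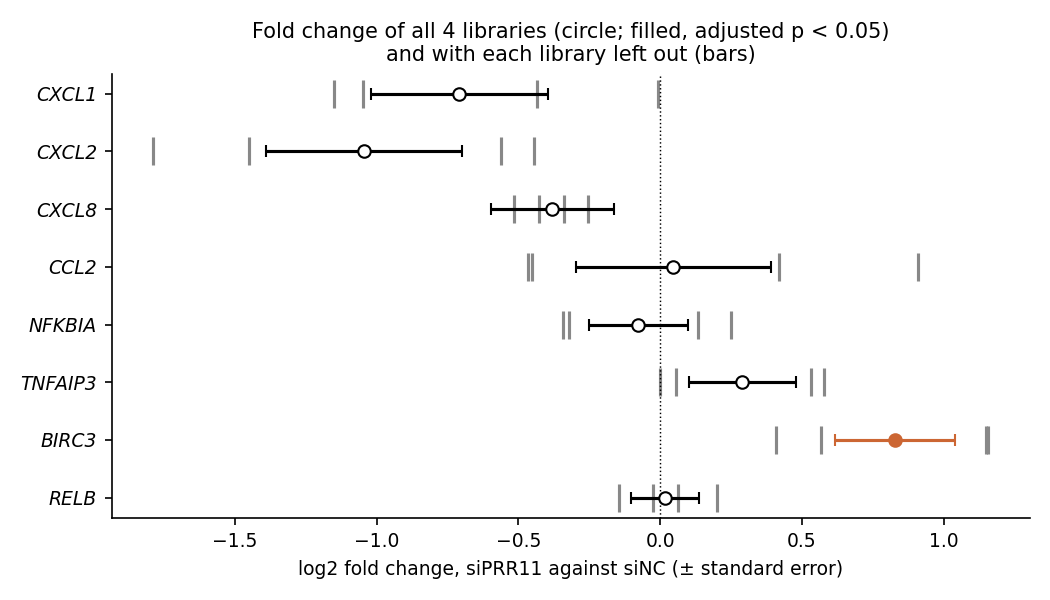
Log2 fold change of siPRR11 against siNC for the 8 tested members (circles, with bars of ± 1 standard error; filled where the adjusted p was under 0.05) and the value with each library left out (grey bars). BIRC3 alone is filled, at 0.83, and its grey bars stay above 0, whereas those of CCL2 run from -0.47 to 0.91.

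Levels per transcript length, as RPKM (counts scaled by exonic length and library total), showed how unlike the members were in abundance. In siNC, NFKBIA was the highest with a mean of 16.9 RPKM and IL1B the lowest with 0.00663 RPKM. RELB (4.55), CXCL2 (4.52), BIRC3 (3.86), CCL2 (3.43), CXCL1 (2.39) and TNFAIP3 (1.58) followed NFKBIA as mean RPKM in siNC, and each neighbour in this order overlapped the next across libraries. CXCL8 came lower, at a mean of 0.710 RPKM, and IL1A was at 0.0216 RPKM. In siPRR11 BIRC3 took the second place with a mean of 7.10 RPKM, behind NFKBIA at 16.6 RPKM and ahead of RELB at 4.78 RPKM, while CXCL2 had a mean of 2.28 RPKM.

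**Figure D3:**
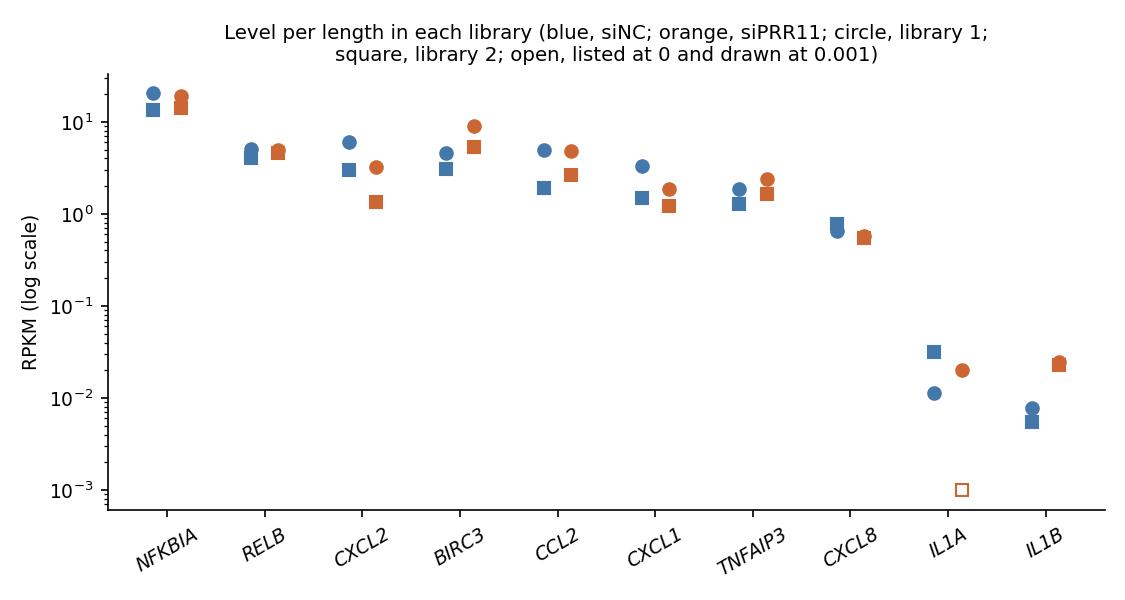
RPKM of the 10 genes in each library on a log axis, siNC in blue and siPRR11 in orange, with circles for library 1 and squares for library 2. NFKBIA leads with means of 16.9 and 16.6 RPKM, and IL1A and IL1B lie far below the other 8, with IL1A listed at 0 in siPRR11 library 2 (open symbol, drawn at 0.001).

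Most members differed between libraries of the same group by more than the median gene did. This pattern was noticed after the values were seen and is given as a description. In 7 of 8 members library 1 was higher than library 2 in both groups, the exception being CXCL8, whereas this held for 31.6% of all tested genes and for 32.6% of the 15889 whose average log2 CPM was 0 or more. CXCL1, CXCL2, CCL2, BIRC3 and TNFAIP3 (5 of 8) were higher in library 1 by more than 0.5 on the log2 scale in both groups, which was the case for 82 of those 15889 genes (0.516%). The log2 difference of library 1 over library 2 was 1.0 in siNC and 1.22 in siPRR11 for CXCL2, 1.13 and 0.61 for CXCL1, and 0.58 and 0.75 for BIRC3. The median size of that difference over all tested genes was 0.167 in siNC and 0.126 in siPRR11.

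Other inducible NF-kB targets had the same order of libraries. Among 27 other inducible NF-kB target genes 22 (81.5%) were higher in library 1 in both groups, and 8 of them by more than 0.5 on the log2 scale in both. IL6, an NF-kB target that is no member of the list, stood at 12.4 and 5.14 CPM in siNC and 7.10 and 3.32 CPM in siPRR11. Feedback inhibitors outside the list were higher in library 1 in both groups in 10 of 19 cases, and genes of the signaling step between receptors and IKK in 11 of 28. Library 1 was also the deeper library of each group, with 83068637 against 59003839 counted reads in siNC and 92612749 against 84279389 in siPRR11. The part of depth in the pattern was not tested.

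The rest of the pathway was described from lists of genes with known roles. Of 98 tested genes in 7 lists, 23 passed the test, 13 higher and 10 lower, beside the background of 16.7% of all genes. Other chemokine ligands were mostly too low to test, with 23 of 39 present in the table and 8 tested, of which 2 rose, 1 fell and 5 did not pass (median log2 fold change 0.43). CXCL14, a ligand made by epithelia, rose from 1.62 and 1.52 CPM to 4.19 and 3.62 CPM (log2 fold change 1.32, adjusted p = 0.000477, edgeR). CX3CL1, the membrane-bound ligand fractalkine, rose from 10.3 and 7.73 CPM to 18.8 and 14.8 CPM (0.89, adjusted p = 0.00208, edgeR), and lost the call in limma on log2(RPKM + 1). CXCL16, a scavenger receptor and ligand of CXCR6, fell from 3.63 and 3.28 CPM to 2.45 and 2.25 CPM (-0.56, adjusted p = 0.0366, edgeR), a call that was lost in DESeq2, in limma and without siNC library 1 or either siPRR11 library. CXCL3, the close relative of CXCL1 and CXCL2, stood at 1.06 and 0.552 CPM in siNC and 0.467 and 0.608 CPM in siPRR11 and did not pass (adjusted p = 0.274, edgeR). Of 4 chemokine receptors tested, 0 passed in the edgeR quasi-likelihood or exact test, DESeq2 or limma, and 1 had an unadjusted p under 0.05 in the quasi-likelihood test. Without siNC library 1, 1 receptor of 6 passed.

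The interleukin-1 receptor complex moved in opposite directions. IL1R1, the signaling receptor, fell from 18.0 and 18.3 CPM to 7.17 and 7.35 CPM (log2 fold change -1.32 ± 0.102 SE, adjusted p = 1.3e-05, edgeR). IL1RAP, the accessory protein it needs, rose from 5.75 and 5.93 CPM to 11.2 and 10.2 CPM (0.88 ± 0.117 SE, adjusted p = 0.000496, edgeR). Of 8 tested genes of the interleukin-1 family besides the members 2 rose, 1 fell and 5 did not pass, with a median log2 fold change of 0.17.

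Of 28 tested genes that carry the signal from the IL-1 and TNF receptors to IKK, 2 rose and 3 fell, and the median log2 fold change was -0.08. IRAK1, the kinase next to the IL-1 receptor, fell from 199 and 197 CPM to 135 and 136 CPM (-0.55, adjusted p = 0.000404, edgeR). CHUK, the IKK alpha kinase, rose from 44.1 and 44.4 CPM to 53.9 and 54.5 CPM (0.29, adjusted p = 0.0229, edgeR), although not without either siPRR11 library. TNFRSF1B rose (0.79, adjusted p = 0.0408, edgeR) and TNFRSF1A, the main TNF receptor, fell (-0.31, adjusted p = 0.0476), as did XIAP, a ubiquitin ligase related to BIRC3 (-0.50, adjusted p = 0.0119). These last 3 calls were lost in limma and without siPRR11 library 1, TNFRSF1B and TNFRSF1A also without siNC library 1, TNFRSF1A without siPRR11 library 2 and TNFRSF1B in DESeq2. TNF itself had at most 2 counts in a library and was not tested.

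Among the other NF-kB subunits NFKB2, the precursor of the partner of RELB, rose from 147 and 115 CPM to 197 and 166 CPM (log2 fold change 0.47, adjusted p = 0.0158, edgeR), a call that was lost in limma. RELA (-0.05, adjusted p = 0.686, edgeR) and NFKB1 (-0.24, adjusted p = 0.0777) did not pass. Over the 4 subunits besides RELB the median was 0.06.

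Feedback inhibitors outside the list were divided as well, with 2 of 19 higher, 3 lower and 14 that did not pass (median log2 fold change -0.05). TNIP1, a partner of the TNFAIP3 product A20, fell from 236 and 208 CPM to 113 and 94.3 CPM (-1.10 ± 0.0959 SE, adjusted p = 3.1e-05, edgeR). NFKBIZ, an atypical nuclear inhibitor protein, fell from 138 and 111 CPM to 107 and 79.5 CPM (-0.42, adjusted p = 0.0478), and OTUD7B, a deubiquitinase, fell by 0.31 on the log2 scale (adjusted p = 0.0212). NFKBID, a relative of NFKBIZ, rose from 1.63 and 1.24 CPM to 3.36 and 2.29 CPM (0.97, adjusted p = 0.014), and PDLIM2 rose by 0.71 on the log2 scale (adjusted p = 0.00133). Except for PDLIM2, which was lost with a pseudocount of 0.1 only, and TNIP1, these calls were lost in limma, that of NFKBIZ also in DESeq2 and without siNC library 1 or siPRR11 library 2, that of NFKBID without siPRR11 library 1, and that of OTUD7B without siNC library 2 or either siPRR11 library.

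Of 27 other inducible targets 4 rose, 2 fell and 21 did not pass, and the median log2 fold change was -0.06. SAA1, an acute-phase protein, rose from 1.62 and 0.655 CPM to 8.15 and 3.79 CPM (2.34 ± 0.377 SE, adjusted p = 0.00161, edgeR), a call lost in limma on log2(RPKM + 1), and its near-identical copy SAA2 makes the count uncertain. SDC4, a cell-surface proteoglycan, rose by 0.48 on the log2 scale (adjusted p = 0.00435), and BCL2L1, an inhibitor of apoptosis with an antisense gene over 43.0% of its exonic bases, rose by 0.43 (adjusted p = 0.0029). SOD2, the mitochondrial superoxide dismutase, fell from 98.1 and 82.3 CPM to 71.4 and 54.6 CPM (-0.52, adjusted p = 0.0123), and this call was lost in limma and without siPRR11 library 2. LIF, a cytokine of the IL6 family, fell by 0.42 on the log2 scale (adjusted p = 0.00264). IL6 itself did not pass (-0.76, adjusted p = 0.176, edgeR), and 20.7% of its exonic bases are overlapped by an antisense gene.

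**Figure D4:**
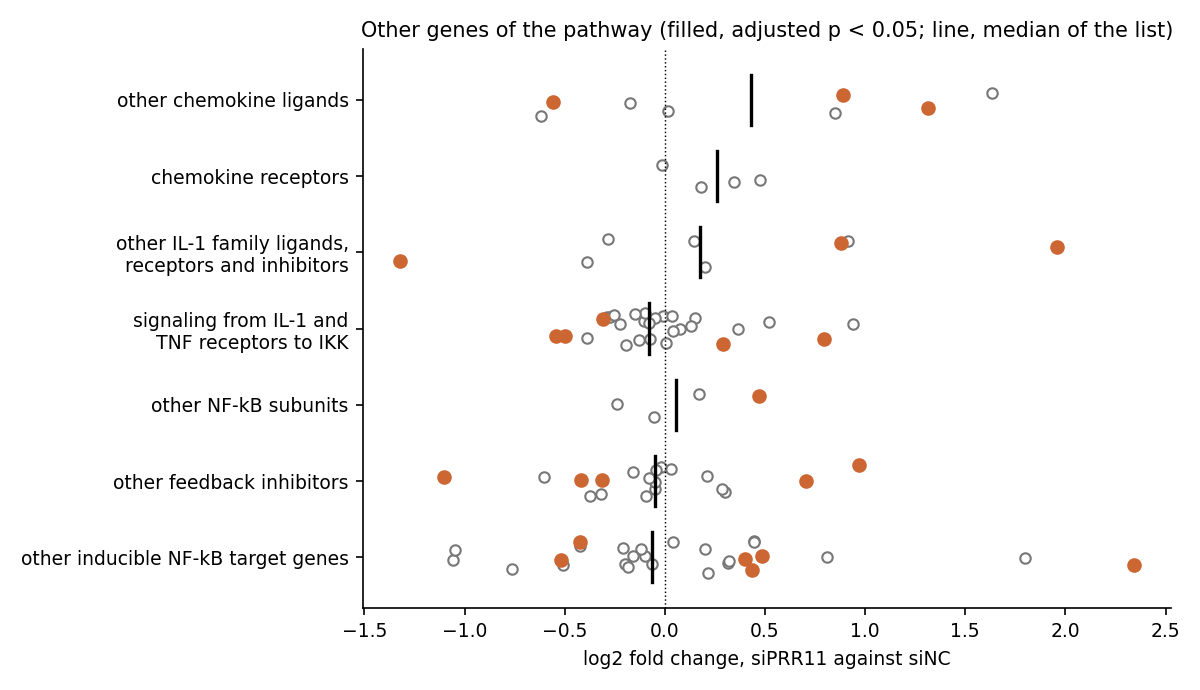
Log2 fold change of siPRR11 against siNC for the 98 tested genes of the 7 pathway lists (filled, adjusted p under 0.05; open, not passed), with a line at the median of each list. Filled points lie on both sides of 0 in 5 of the 7 lists, and the medians run from -0.08 to 0.43.

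Genes whose profile over the 4 libraries came nearest to a member were found by the root mean square distance between centred log2 CPM values. For CXCL8 these were ARHGEF5 (0.0109), CLCN6 (0.0177) and EGFR-AS1 (0.0180), each highest in siNC library 2. For NFKBIA they were COL7A1 (0.0254), MIR6515 (0.0355) and IER3 (0.0364), each higher in library 1 than in library 2 of both groups. With 4 libraries and many genes, near profiles of this kind are a description of these libraries.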

How the data were processed

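RNA of ACHN cells was sequenced after transfection with siNC (2 libraries) or siPRR11 (2 libraries), and groups were taken from the sample labels. According to the study's methods and the submitters' processing notes, reads were trimmed (Trimmomatic 0.36), aligned to GRCh38 with STAR and counted with featureCounts (Subread 1.5.1). Neither the annotation release nor the strand setting of the counter is given in the sources used here. The authors deposited raw read counts per gene, to which no normalization had been applied. The authors supplied RPKM values for these genes in a second deposited table, which divide the count by exonic length and by library total.

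Counts were tested with edgeR 4.0.16 in R 4.3.3 (quasi-likelihood test, two-sided, TMM scaling, filterByExpr, condition as the only term). P-values were adjusted by Benjamini and Hochberg over the 21630 genes tested, at a threshold of 0.05, and 14729 genes were not tested. The SE is the size of the log2 fold change over the root of F. On counts simulated for this comparison, 199 of 200 changed genes were recovered among 21630 genes, with 26 false calls. How far this recovery holds for the members, with their fold changes and their spread between libraries, was not tested. The alternatives were size factors by relative log expression, DESeq2 1.42.0, no low-count filter, the edgeR exact test, a minimum of 10 counts per library, a replicate block, limma 3.58.1 on log2(RPKM + 1) and log2(RPKM + 0.1), and each library left out in turn. Where a group was left with 1 library, it was assumed to vary like the other group.

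Members and lists were chosen with earlier results of these data known. Named were all members, the 3 largest rises and 3 largest falls past the threshold in each list whose average log2 CPM was 0 or more, CXCL3, RELA, NFKB1, NFKB2, TNF and IL6 by name, and the 3 genes of nearest profile to CXCL8 and to NFKBIA whose average log2 CPM was 1 or more. Genes were matched by exact symbol. A leukocyte marker beyond the 11 used was left out of every value and is not reported here. Intervals and limits cover counting error only. Upstream sequences were credited to RefSeq, and 50-base windows were compared over 1 annotated transcript per gene.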

Additional observations from a re-analysis of the deposited data

How the results depend on the processing

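The number of members past the threshold was 1 with relative log expression or a minimum of 10 counts, and 0 in DESeq2 and in both limma fits. At an unadjusted p of 0.05, 1 of 8 passed in each of the latter fits. That member was lower in DESeq2, and so was not BIRC3, and higher in both limma fits. The number was 2 in the edgeR exact test, and 3 without a filter on low counts or at an unadjusted p of 0.05. Leaving out each library gave 3 to 4 members, 2172 to 4590 genes in all and 17 to 35 genes of the pathway lists. Over all genes limma passed 1775 (61.5% higher) and 1878 (61.3% higher), against 3622 (45.4% higher), and an unadjusted p passed 6553. Limma passed 11 and 12 of the pathway genes, against 23. BIRC3 was lost in DESeq2 (0.83) and limma (0.72 and 0.84). CXCL1 (-0.71) and CXCL2 (-1.04) gained a call without the filter, as did CXCL2 in the exact test (-1.04). The cause was not tested. With each library left out, log2 fold changes ran from -1.15 to -0.0071 (CXCL1), -1.79 to -0.44 (CXCL2), -0.52 to -0.25 (CXCL8), -0.47 to 0.91 (CCL2), -0.34 to 0.25 (NFKBIA), -0.0023 to 0.58 (TNFAIP3), 0.41 to 1.16 (BIRC3) and -0.14 to 0.20 (RELB). Of the 21 list genes named for passing the threshold, 18 also passed in DESeq2, 10 and 11 in limma, and all 21 with relative log expression, the exact test, no filter, the minimum of 10 counts and the replicate block.

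With the replicate number as a block, 4 members passed (BIRC3 as well as CXCL1 at -0.66, CXCL2 at -1.06 and TNFAIP3 at 0.30), 6988 genes in all and 46 pathway genes, among them 2 of the 4 chemokine receptors, both higher. The labels do not say that a number marks a shared culture or day, so the pairing is not established. Library differences of both groups correlated across all tested genes at r = 0.165. Among genes whose average log2 CPM was 0 or more, 32.6% were higher in library 1 in both groups and 31.7% in library 2 in both. Whether same-numbered libraries share a source was not tested. The fits with the block, without the filter or without a siPRR11 library took the spread of every gene from the common trend. IL1A and IL1B were limited by their low counts, and no value of this design separates spread between cultures from spread between libraries.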
